A study of Arabidopsis thaliana with 6 samples.

Results

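The genes described here are 116 of the 13356 Arabidopsis thaliana genes measured by a probe set naming a single gene, and they were far higher in light-grown seedlings than in dark-grown ones while lying close to the dark level in seedlings given H2O2. They were chosen by their measured values. The mean of the light arrays exceeded the mean of the dark arrays by at least 3 on the log2 scale (at least 8-fold), the H2O2 mean lay within 0.5 of the dark mean (within 1.41-fold), and both light arrays stood above the other 4. All 6 arrays were used for the choice, so the levels and differences of these genes are given as descriptions, with no test.

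Whole seedlings of the Col-0 accession, harvested at 7 days, were profiled on Affymetrix ATH1 arrays, with 2 biological replicates in each of 3 groups. The light group grew under 16 h of light and 8 h of dark. The H2O2 group grew in the dark with 5 mM hydrogen peroxide, and the dark group grew in the dark without it. All 3 groups were wild-type Col-0, and the design text states that darkness was used to lower the H2O2 that seedlings produce themselves. Since RNA came from whole seedlings, fewer cells of a type and less RNA per cell cannot be told apart in any difference below. Replicate numbers are only names here. Values are log2 expression per probe set, and the small number of arrays sets their precision.

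Seedlings grown in the dark form a long hypocotyl and closed cotyledons whose plastids remain etioplasts without chlorophyll. Light, sensed by phytochromes and cryptochromes, switches them to greening: chloroplasts build thylakoids and photosystems, and nuclear genes for photosynthesis, carbon fixation and chlorophyll synthesis are expressed more. Illuminated chloroplasts also release H2O2 as a by-product of electron transport, and ascorbate peroxidases, peroxiredoxins and thioredoxins remove it or pass on its signal.

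Across the 116 genes the median level was 8.53 and 8.44 on the light arrays, 4.89 and 4.80 on the H2O2 arrays, and 4.58 and 4.73 on the dark arrays. The H2O2 and dark arrays were thus close to each other and far from both light arrays. The median light minus dark difference was 3.58 and ranged from 3.01 to 6.35. The gene at the top was near the lower end of the scale in the dark, so its difference may be understated. It was at least 4 in 30 of the genes and at least 5 in 8. The gap between the lower light array and the highest of the other 4 had a median of 3.23, and the smallest was 2.10. The median H2O2 minus dark difference was 0.11, and over all 22746 tested probe sets the medians were -0.06 for light minus dark and -0.02 for H2O2 minus dark. Limma called 48% of all tested probe sets in light minus dark (adjusted p under 0.05), 23% higher and 25% lower, and all 116 genes are among the higher ones, as their choice requires. The median light minus H2O2 difference was 3.51. There limma called 39.5% of all probe sets, 17.4% higher and 22% lower, and the same remark holds.

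**Figure D1:**
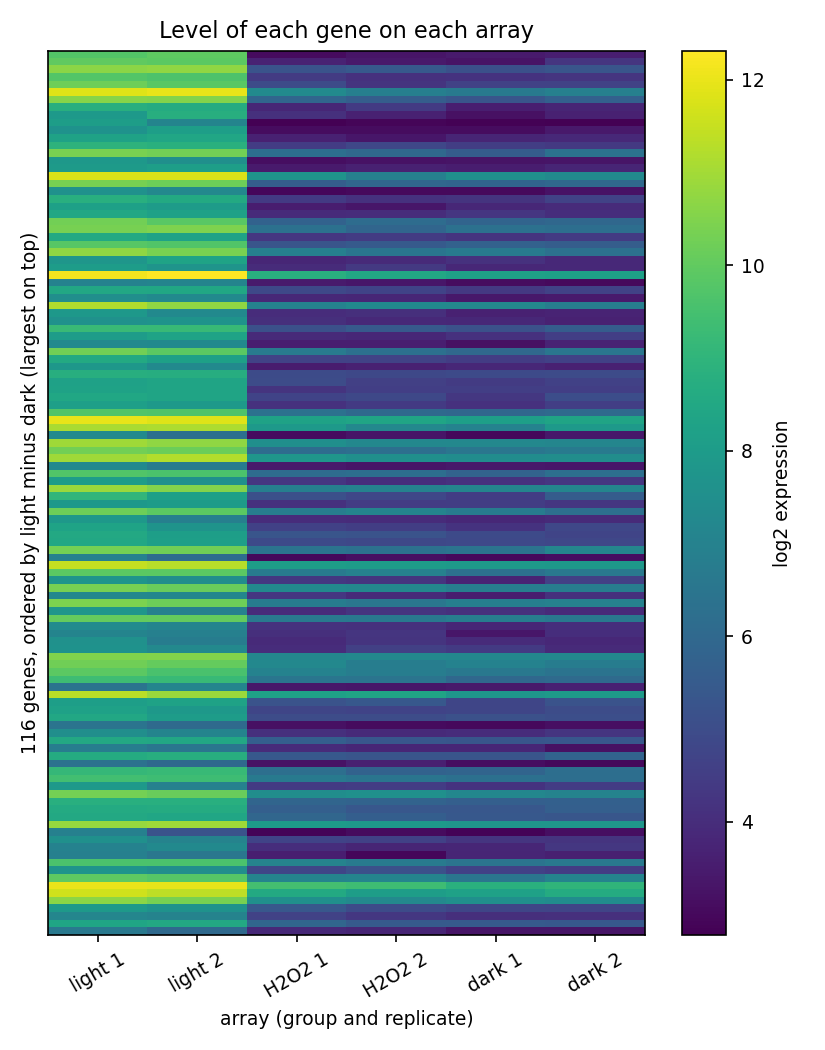
Log2 expression of the 116 genes (rows, largest light minus dark difference on top) on each array (columns, group and replicate number). Within every row both light arrays are brighter than the other 4; group means run from 6.08 to 12.23 in light, 2.85 to 9.41 with H2O2 and 2.82 to 8.92 in the dark, so the ranges overlap between rows.

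Genes that were brighter in the dark were brighter in light too. Over the 116 genes, dark and light means correlated at r = 0.901 (rho = 0.882) and dark and H2O2 means at r = 0.988, against 0.907 and 0.979 over all 13356 genes. These correlations are across genes, which share arrays and probe brightness, and they describe the set only. Replicates were close for most of the genes: the gap between replicates was under 0.5 in 97 of 116 genes in light, 109 with H2O2 and 100 in the dark. The widest gap was that of AT4G16880, at 6.94 and 5.22 in light.

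Many of the genes were near the lower end of the scale without light. A group mean under 5.16 is called dim here. That is the 40th percentile of the probe sets' averages across the arrays. Of the 116 genes 67 (57.8%) were dim in the dark, against 47.1% of all measured genes, 65 of them were dim with H2O2 as well, and none was dim in light. Differences between dim levels are compressed on arrays, so a change with H2O2 may be understated in these 65. Of all measured genes 89.3% of those dim in the dark lay within 0.5 of dark with H2O2, against 71.3% of those that were not. The other 49 of the 116 had dark means of 5.18 to 8.92 and light means of 8.45 to 12.23. A change with H2O2 is better read in these 49, but only up to the limit of 0.5 that chose them. The faintest of them lay just above the dim bound, so a fall in those may be understated too. The median H2O2 minus dark difference of the 49 was 0.16, which the limit of 0.5 bounds.

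The precision of the H2O2 minus dark difference limits what "unmoved" can mean. Its 95% interval from the fit stayed within 1 in either direction for 114 of the 116 genes and for all 49 that were not dim. It stayed within 0.5 for 27 of the 116 and for 13 of the 49. The choice held every difference itself within 0.5, so the counts within 1 largely follow from it. AT2G33850 (-0.20 to 1.08) and AT4G16880 (-1.03 to 0.94) reached beyond 1. The interval held 0 for 93 genes. The H2O2 and dark arrays overlapped in 62 of the 116 genes, both H2O2 arrays lay above both dark arrays in 38, and both lay below in 16. Over all measured genes they overlapped in 40.8%. The limit of 0.5 favours overlap, so nothing is read from the higher share among the 116. Limma called 2 of the 116 genes higher with H2O2 and none lower, where it called 20.5% of all tested probe sets, 12.3% higher and 8.18% lower. The choice fixed those low counts, and nothing is read from them. The 2 genes were AT1G76450 at 0.44 ± 0.13 (SE, limma adjusted p = 0.0436) and AT1G32470 at 0.49 ± 0.14 (adjusted p = 0.0351). Neither call held with the arrays centred on their medians, at 0.32 (limma adjusted p = 0.109) for AT1G76450 and 0.36 (0.0869) for AT1G32470. Nor did they hold with centring on the hybridisation controls, though the differences were larger there. They were 1.22 (limma adjusted p = 0.0849) and 1.26 (0.0726) for the same genes.

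**Figure D2:**
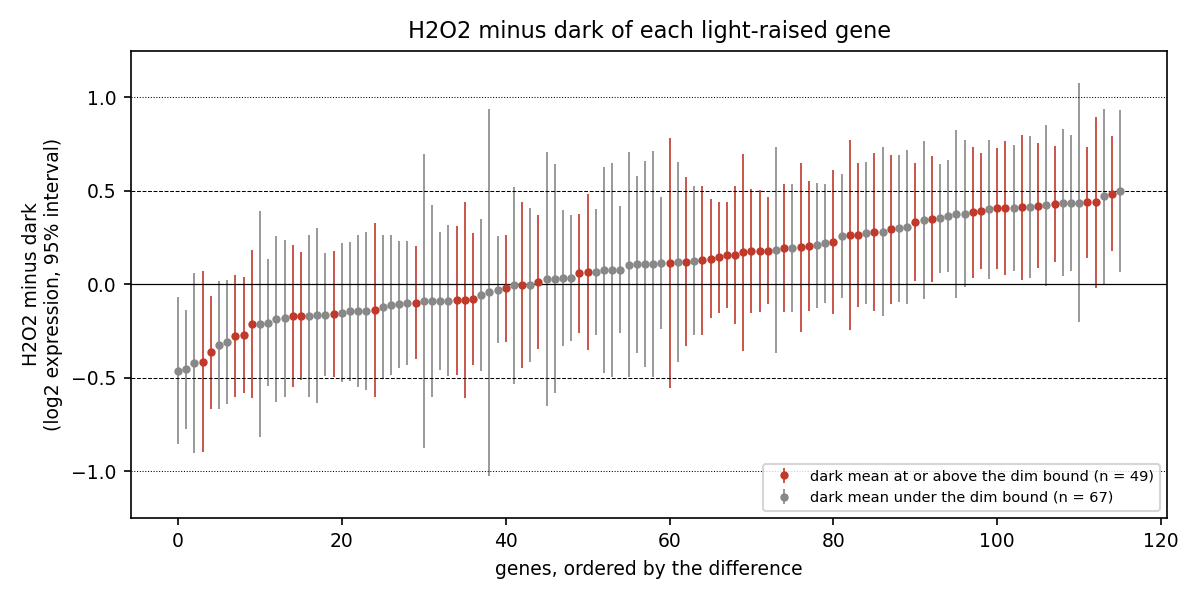
H2O2 minus dark (log2 expression) of each of the 116 genes in ascending order, with the 95% interval from the fit. Red points are the 49 genes with a dark mean at or above the dim bound and grey points the 67 below it, and 114 of the 116 intervals stay inside the dotted lines at -1 and 1.

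The genes with a name in the annotation were few: 14 of the 116 have a symbol other than their locus number, and another, AT3G21670, carries the name NPF6.4. Several act in the chloroplast. SBPASE, the Calvin cycle enzyme sedoheptulose-bisphosphatase that helps regenerate the carbon dioxide acceptor, had the highest mean in light of all 116. It stood at 12.15 and 12.31 in light, 8.79 and 8.49 with H2O2, and 8.25 and 8.19 in the dark. Its light minus dark difference was 4.01 ± 0.15 (SE, n = 2 arrays per group), and its H2O2 arrays both lay slightly above the dark arrays, by 0.42 ± 0.15. TRXF2, an f-type thioredoxin that activates Calvin cycle enzymes by reducing them in light, had 10.72 and 10.39 in light, 6.92 and 6.47 with H2O2, and 6.67 and 6.32 in the dark. Here the H2O2 and dark arrays overlapped, and the differences from dark were 4.06 ± 0.20 in light and 0.20 ± 0.20 with H2O2.

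NdhN, a subunit of the chloroplast NADH dehydrogenase-like complex, which takes part in cyclic electron flow around photosystem I, stood at 10.28 and 9.86 in light, 5.78 and 6.16 with H2O2, and 5.85 and 5.96 in the dark. Its H2O2 arrays lay on either side of the dark arrays, at a difference of 0.06 ± 0.18, against 4.16 ± 0.18 in light. NdhL, another subunit of that complex, is not among the 116: it had 10.29 and 10.30 in light, 6.36 and 6.29 with H2O2, and 5.49 and 5.45 in the dark, and it rose by 0.85 ± 0.12 with H2O2 (limma adjusted p under 0.05). CaS, a thylakoid protein annotated as a calcium sensing receptor, had 11.76 and 11.79 in light, 7.73 and 6.94 with H2O2, and 7.53 and 7.30 in the dark. Its H2O2 replicates differed by 0.79, the widest gap among the 116 genes in that group, and enclosed both dark arrays.

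CHLI2, a subunit of the magnesium chelatase that opens the chlorophyll branch of tetrapyrrole synthesis, had 9.60 and 9.61 in light, 7.04 and 6.74 with H2O2, and 6.45 and 6.64 in the dark. FTSZ2-2, a tubulin-like protein of the plastid division ring, had 8.37 and 8.53 in light, 5.93 and 5.47 with H2O2, and 5.47 and 5.40 in the dark. Both sat near the lower limit of the light difference, at 3.06 ± 0.15 and 3.02 ± 0.17. AT1G32470, on the photorespiration list, had the highest dark mean of the 116, with 12.00 and 11.97 in light, 9.48 and 9.34 with H2O2, and 8.83 and 9.02 in the dark. All of its H2O2 values lay above its dark values.

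Among the named genes 3 have known roles in removing peroxide or repairing oxidative damage; the roles of the unnamed genes were not assessed. TAPX, the thylakoid ascorbate peroxidase that reduces H2O2 with ascorbate, had 9.93 and 9.59 in light, 7.00 and 6.83 with H2O2, and 6.59 and 6.42 in the dark. Its H2O2 arrays lay above the dark arrays by 0.41 ± 0.16, with a 95% interval of 0.05 to 0.77, against 3.25 ± 0.16 in light. AOR, an alkenal/one oxidoreductase that reduces reactive carbonyls formed from oxidised lipids, had 11.46 and 11.30 in light, 8.08 and 8.02 with H2O2, and 7.94 and 7.88 in the dark. Its H2O2 minus dark difference was 0.14 ± 0.13 (interval -0.15 to 0.44). MSRB6, a methionine sulfoxide reductase that repairs oxidised methionine in proteins, had 10.19 and 9.87 in light, 4.95 and 4.22 with H2O2, and 4.68 and 4.67 in the dark. Its light difference of 5.36 ± 0.23 was the largest among the named genes, and it was dim in both groups grown without light.

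The remaining named genes act elsewhere or have no stated compartment. BCAT4, the aminotransferase that starts the chain elongation of methionine for aliphatic glucosinolates, the sulfur-rich defence compounds of the cabbage order, had 11.10 and 11.14 in light, 7.92 and 7.24 with H2O2, and 7.02 and 7.92 in the dark. Its dark replicates spanned nearly all of the H2O2 range, and the interval of the H2O2 difference ran from -0.56 to 0.78. AT2G31790, on the list of the same pathway, had 9.13 and 9.19 in light, 6.28 and 5.77 with H2O2, and 5.84 and 6.22 in the dark. These were the only 2 genes of that list of 16 with a probe set naming a single gene here, and both belong to the 116.

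SAG29, also named SWEET15 and a member of the SWEET family of sugar transporters, had 9.03 and 8.20 in light, 5.11 and 4.79 with H2O2, and 4.52 and 5.56 in the dark, and its dark arrays enclosed its H2O2 arrays. AT3G21670, the NRT1/PTR family transporter NPF6.4, had 10.27 and 9.91 in light, 6.75 and 6.29 with H2O2, and 6.00 and 6.52 in the dark. CYP71B26, a cytochrome P450, had 9.26 and 9.19 in light, 5.11 and 5.42 with H2O2, and 5.14 and 5.56 in the dark. In all 3 the H2O2 and dark arrays overlapped. CHX20, a cation/H+ exchanger, had 7.70 and 7.50 in light, 4.76 and 5.13 with H2O2, and 4.63 and 4.45 in the dark. IQD24, an IQ-domain protein of a family that binds calmodulin, had 7.15 and 7.05 in light, 4.66 and 4.32 with H2O2, and 4.07 and 4.08 in the dark. For these last genes both H2O2 arrays lay above both dark arrays, by 0.40 ± 0.16 and 0.41 ± 0.15, and all of those levels were dim.

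**Figure D3:**
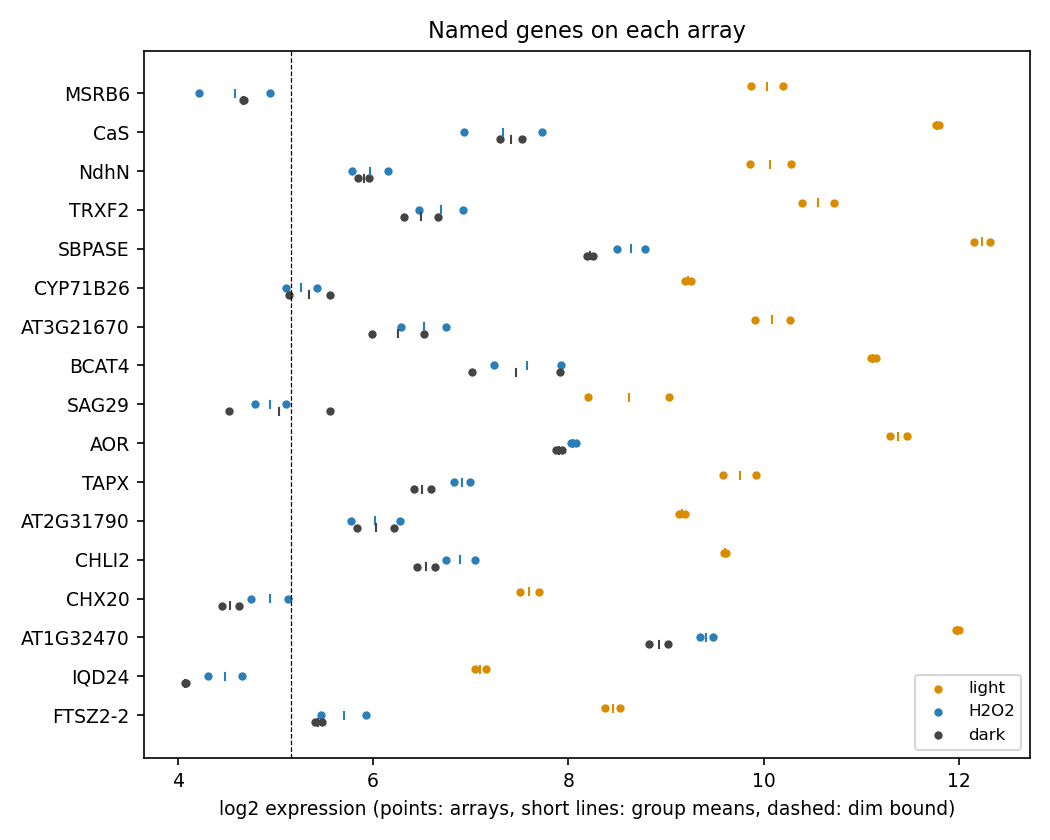
Log2 expression of 17 of the genes, those with a name in the annotation or a place on a pathway list, on each light (orange), H2O2 (blue) and dark (grey) array; short lines are group means and the dashed line is the dim bound. In every row both light arrays lie to the right, and the H2O2 and dark points lie within 0.5 of each other by their means.

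The largest light differences belonged mostly to genes without a name. AT1G65490 had 9.77 and 9.95 in light, 3.07 and 3.33 with H2O2, and 3.46 and 3.56 in the dark, a light minus dark difference of 6.35 ± 0.15. AT1G66100 followed at 6.18 ± 0.27, with 9.98 and 9.90 in light, 3.68 and 3.42 with H2O2, and 3.28 and 4.23 in the dark. Both were dim without light, as were 11 of the 15 genes with the largest differences, so their sizes and order are uncertain. The 4 that were not dim in the dark were AT2G29290, AT5G48490, AT3G57020 and AT1G21500. AT5G48490 was the brightest of them, at 11.84 and 12.01 in light, 7.33 and 6.89 with H2O2, and 6.69 and 6.93 in the dark. AT3G57020 had 10.60 and 10.55 in light, 5.88 and 5.58 with H2O2, and 5.31 and 5.69 in the dark. AT1G21500 had 10.41 and 10.26 in light, 6.21 and 6.00 with H2O2, and 5.54 and 6.33 in the dark. In each of these 3 genes the H2O2 and dark arrays overlapped. The others of the 15 were AT3G56290, AT1G60590, AT2G33850, AT2G27420, AT1G13650, AT3G22060, AT1G57770 and AT2G29360, with light minus dark differences of 5.51, 5.03, 4.89, 4.75, 4.62, 4.51, 4.44 and 4.39.

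At the bright end, AT3G47070 had 12.01 and 11.84 in light, 8.26 and 8.38 with H2O2, and 8.16 and 8.36 in the dark. AT5G44580 had 11.62 and 11.36 in light, 8.56 and 8.07 with H2O2, and 8.25 and 8.66 in the dark. The H2O2 and dark arrays overlapped in both. AT1G55960, AT4G27700, AT5G35970 and AT1G44000 were also among the 10 highest in light or in the dark, with light minus dark differences of 3.21, 3.65, 3.10 and 3.03 and H2O2 minus dark differences of 0.41, 0.21, 0.18 and -0.08. A further 25 genes that were not dim in the dark had light means of 8.47 to 10.95 and H2O2 minus dark differences of -0.41 to 0.44. The other 50 were dim in the dark, with light means of 6.20 to 8.74 and light minus dark differences of 3.01 to 4.39.

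A run of neighbouring loci held 3 of the 116. It was picked out after its values were seen. Of the loci numbered AT2G29260 to AT2G29370, 9 were measured here. AT2G29290 had 10.67 and 10.74 in light, 5.22 and 5.42 with H2O2, and 5.09 and 5.28 in the dark. AT2G29360 had 7.86 and 7.52 in light, 3.13 and 3.24 with H2O2, and 3.29 and 3.30 in the dark. AT2G29320 had 7.47 and 7.08 in light, 4.08 and 3.90 with H2O2, and 3.99 and 4.24 in the dark. All 3 were more than 3 higher in light with H2O2 near dark, and the last 2 were dim without light.

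The other 6 measured loci of the run did not meet the limits that chose the 116. AT2G29300 missed only the light limit, and its H2O2 minus dark difference was -0.34 ± 0.26 (limma adjusted p = 0.427). AT2G29300, AT2G29310, AT2G29340 and AT2G29370 were higher in light by 2.56 ± 0.26, 4.13 ± 0.17, 1.67 ± 0.15 and 0.88 ± 0.20 (limma, adjusted p under 0.05 each). AT2G29260 was not called, at 0.14 ± 0.20. TRI, annotated as tropinone reductase, went the other way: it fell to 6.97 and 6.53 in light and was 8.00 and 8.19 with H2O2, against 9.16 and 8.98 in the dark, by 2.32 ± 0.17 in light (limma adjusted p = 6.11e-06). With H2O2, TRI, AT2G29340 and AT2G29310 were called lower at -0.97 ± 0.17, -0.63 ± 0.15 and -0.61 ± 0.17. None of these H2O2 calls held when the hybridisation controls were used to centre the arrays: TRI was then at -0.20, AT2G29340 at 0.15 and AT2G29310 at 0.17. All of them held with the arrays centred on their medians, at -1.1, -0.75 and -0.73 in the same order (limma adjusted p = 0.00226, 0.0105 and 0.0124). Cross-hybridisation between these loci was not tested. Neighbours were taken in the order of protein-coding genes only. Around the 115 protein-coding genes of the 116, 29 of 114 measured immediate neighbours (25.4%) were called higher in light, against 22.1% of the neighbours of all measured genes. Of those 114, 2 (1.75%) were at least 3 higher in light with both light arrays above the rest, against 1.5% for all genes, and neither difference was tested. The pseudogene AT4G16870 was left out of these counts. It and AT4G16880, the next locus number, are both among the 116, at light minus dark differences of 3.24 and 3.08.

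The other genes of the pathways were read from 12 lists of 229 genes. Any of them behind the 8730 unnamed probe sets or the 503 naming several genes were left out and could not enter the 116. A probe set naming a single gene measured 46 of the 229, 8 of them among the 116. Of the 38 others, limma called 32 higher and 3 lower in light, with a median light minus dark difference of 1.91, where 23% of all tested probe sets were called higher and 25% lower. With H2O2 it called 10 of the 38 higher and 3 lower, at a median of 0.16, and 25 were not called, where 12.3% of all probe sets were called higher and 8.18% lower. With the hybridisation controls as the centre, an alternative chosen for this count after seeing the data, 7 of the 10 higher calls and 0 of the 3 lower calls held, and 1 other gene was called higher. With array medians as the centre, also chosen after seeing the data, 8 of the 10 higher calls held. There 4 genes were called lower, among them the same 3. In light minus H2O2 it called 31 higher and 4 lower, at a median of 1.63, where 17.4% of all probe sets were called higher. None of the 6 photosystem and electron transport genes or the 3 antenna genes reached the light difference of 3. Some were near the top of the scale in light: PSAE-1 had 13.63 and 13.53, and LHCB4.1 had 13.10 and 13.36. The highest value on the arrays was 14.23, and whether this limited their differences was not tested. LHCB4.3 and PGRL1B were lower in light, at 8.50 and 8.39 and at 9.19 and 8.88. PSAN, PSBY and PSAE-1, of the photosystems, rose by 2.75, 2.50 and 2.44 in light, and PSAN also rose by 0.57 with H2O2. LHCB4.2, LHCB4.3 and LHCB4.1, of the minor antenna, rose by 1.92, 1.79 and 1.22 in light and had H2O2 minus dark differences of 0.32, -0.34 and -0.08. PGRL1B, of cyclic electron flow, rose by 2.26 ± 0.15 in light and by 1.05 ± 0.15 with H2O2.

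In the Calvin cycle RCA, the Rubisco activase gene, missed the light limit at 2.94 ± 0.19. It stood at 14.03 and 13.90 in light, near the highest value of 14.23. PRK, the phosphoribulokinase gene, passed the limit at 3.27 ± 0.14 but rose with H2O2 by 0.67 ± 0.14. Of 7 other genes of chlorophyll and tetrapyrrole synthesis 6 rose in light, with HEME2, HEME1 and CHLM at 2.23, 1.99 and 1.20, and HEME2 rose with H2O2, by 0.49. Of 7 other genes of chloroplast redox control 6 rose in light and TY1, a y-type thioredoxin, fell by 1.42 ± 0.16. NTRC, a plastid thioredoxin reductase, rose by 3.18 ± 0.13 in light and by 0.92 ± 0.13 with H2O2. THX, an x-type thioredoxin, rose by 2.12 ± 0.14 in light with an H2O2 minus dark difference of -0.29 ± 0.14. AT3G11630 of that list rose by 1.96 ± 0.13 in light, with an H2O2 minus dark difference of 0.10 ± 0.13. Of 5 other photorespiration genes 3 rose in light, among them LrgB at 2.38, HPR, the hydroxypyruvate reductase gene, at 2.34, and AT1G11860 at 1.99. AT1G80380 of that list was called lower in light at -0.66. With the hybridisation controls as the centre it stood at 0.03, and with array medians at -0.77 (limma adjusted p = 0.00109). LrgB, a glycolate and glycerate transporter of the chloroplast, TY1 and ATHM2, an m-type thioredoxin, were the 3 called lower with H2O2, at -0.53, -0.63 and -0.44. With the controls as the centre they stood at 0.25, 0.15 and 0.34 with no call. With array medians they stood at -0.65, -0.75 and -0.56 and were still called lower. SBE2.2 and DPE1, both of starch metabolism, rose by 2.52 and 1.67 in light and by 0.89 and 0.75 with H2O2. LYC and Z-ISO, of carotenoid synthesis, rose by 1.14 and 0.74 in light and were not called with H2O2. HYH, a transcription factor of light signalling, rose by 2.80 in light and FHL, of phytochrome A nuclear import, fell by 1.33, and both rose with H2O2, by 0.98 and 0.55. Of the calls named for these pathways, some others also fell short of the threshold under the control centring. Those of PSAN, HEME2 and FHL with H2O2 did so at larger differences, 1.35, 1.27 and 1.33. Those of TY1 and FHL in light did so at smaller ones, -0.73 and -0.64. Under median centring only those of HEME2 and FHL with H2O2 fell short. WSD1, the single measured gene of cuticle and wax, was at -0.06 in light and 0.26 with H2O2 and was not called.

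**Figure D4:**
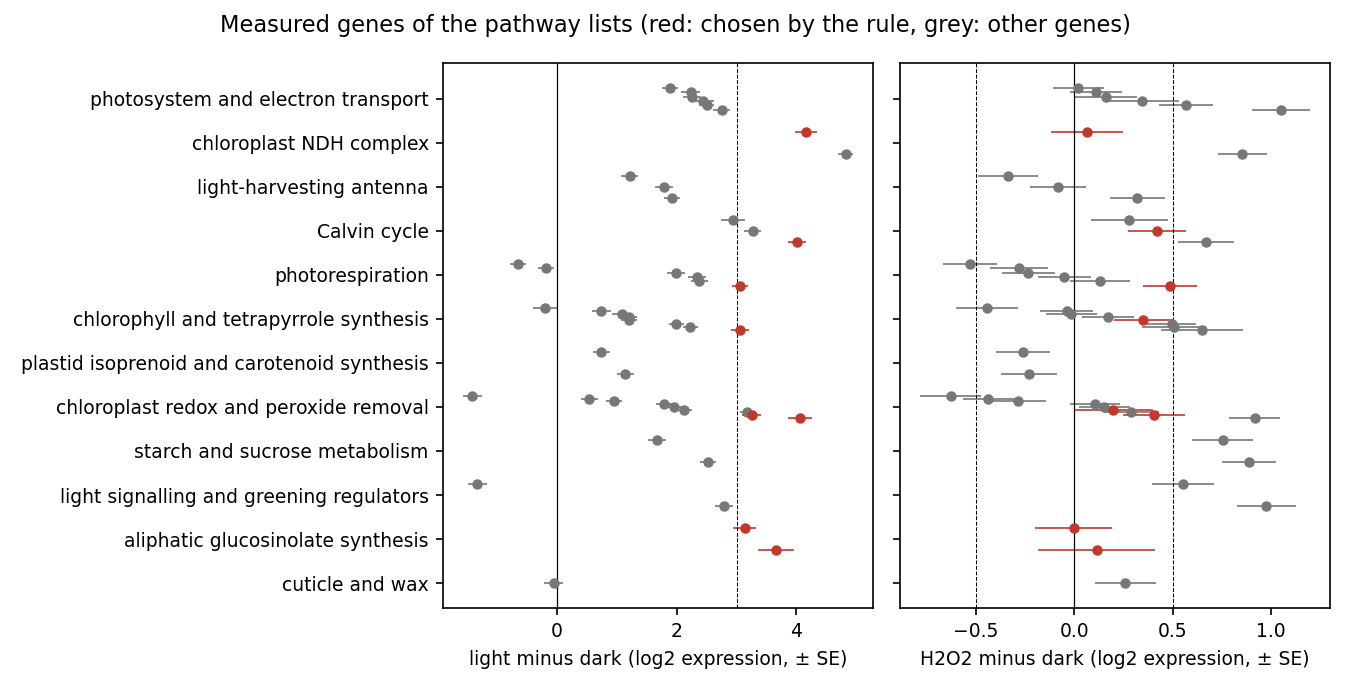
Light minus dark (left) and H2O2 minus dark (right), log2 expression ± SE from the fit, of the 46 measured genes on 12 pathway lists. Red points are the 8 genes among the 116 and grey points the other 38; dashed lines mark 3 on the left and -0.5 and 0.5 on the right.

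In all, 187 genes (1.4% of those measured) were at least 3 higher in light with both light arrays above the rest. Of these, 116 (62.0%) lay within 0.5 of dark with H2O2, 60 lay higher and 11 lower, where 79.8% of all measured genes lay within 0.5. The 2 differences share the dark arrays, so an error in the dark mean enters both. Among the 98 light-raised genes dim in the dark 68.4% belonged to the 116, and among the 89 that were not dim 55.1% did. The 60 genes higher with H2O2 had a median light minus dark difference of 3.57, close to the 3.58 of the 116, a median dark mean of 5.34 against 4.67, and a median H2O2 minus dark difference of 0.85. They included NdhL, PRK, NTRC and TROL. The 11 lower with H2O2 included ECS1, THI2.2, a thionin gene, and GSTU20, a glutathione S-transferase gene. Of the 18 genes at least 5 higher in light, 8 belonged to the 116, 5 were higher with H2O2 and 5 lower. In the opposite direction, 30 of 73 genes (41.1%) at least 3 lower in light lay within 0.5 of dark with H2O2. None of those 30 was dim in the dark, which the limit of 3 fixes, as the lowest value on the arrays was 2.22.

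**Figure D5:**
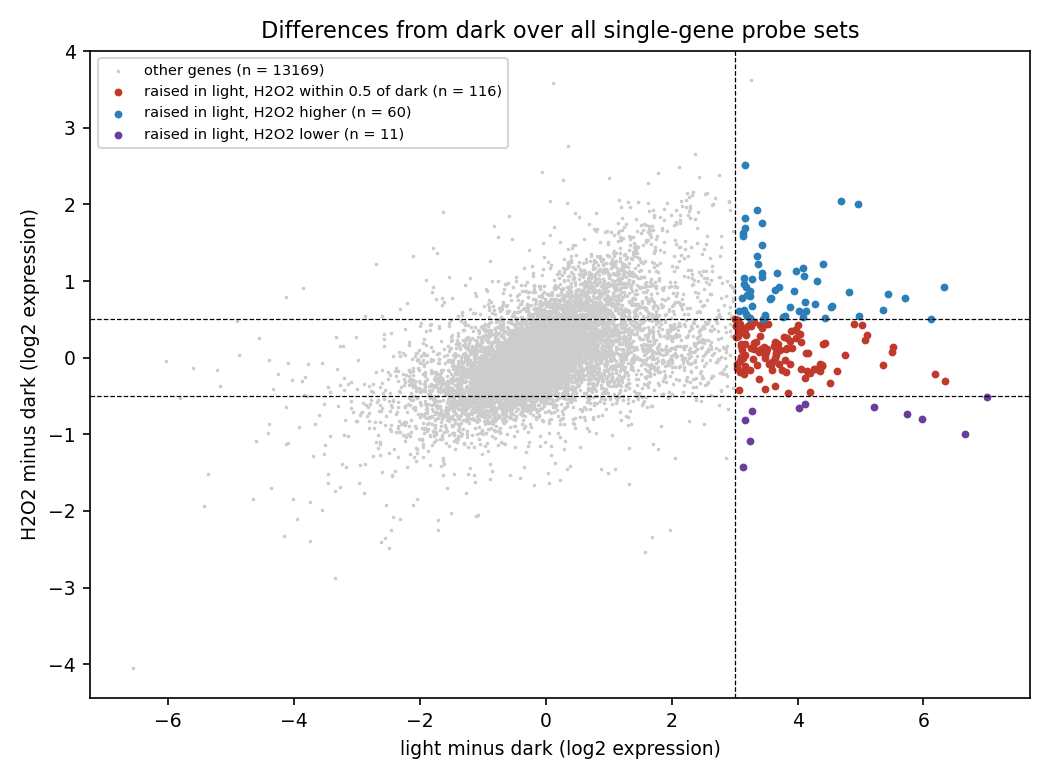
Light minus dark against H2O2 minus dark (log2 expression) for the 13356 genes; both axes share the dark arrays. Red points are the 116 genes, blue points 60 light-raised genes that were higher with H2O2 and purple points 11 that were lower; dashed lines mark the limits at 3, -0.5 and 0.5.

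Gene span, which the choice did not use, differed in its median between these sets. It was 1983 bp for the 116 genes (quartiles 1422 and 2536), 2389 bp for the 60 higher with H2O2 (1773 and 3707), 1043 bp for the 11 lower with H2O2 (936 and 1240), and 2105 bp over the 13286 measured genes with a span (1400 and 3044). The quartiles of the 116 and of all genes overlap widely. All 116 were measured by 1 single-gene probe set of the plain kind, 115 are annotated as protein-coding, and AT4G16870 is a pseudogene.

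The limits cut through a continuous range. AT3G05340, FTSZ2-2 and IQD24 were just inside the light limit at 3.01, 3.02 and 3.02, and AT1G52220, RCA and CRR21 were just outside at 2.97, 2.94 and 2.93. On the upper H2O2 side AT3G05340, AT1G32470 and AT1G78995 were just inside at 0.50, 0.49 and 0.47, and AT5G02940, AT1G51110 and AT4G37560 just outside at 0.51, 0.51 and 0.52. On the lower side AT4G19530, AT3G44970 and AT5G58390 were inside at -0.46, -0.45 and -0.42, and AT2G25510, AT2G29310 and AT1G22690 outside at -0.52, -0.61 and -0.65.

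The nearness to dark depends on how the arrays are scaled. With each array centred on its median, 109 genes met the limits, 94 of them among the 116, and the median H2O2 minus dark difference of the 116 turned to -0.01. Centring on the hybridisation controls, transcripts spiked in during processing, moved the median H2O2 minus dark of all probe sets by 0.78 and the median light minus dark by 0.69. The 116 then lay 0.89 above dark with H2O2 at the median, 0.11 beyond that shift. With it 109 of the 116 were at least 0.5 above dark, none of them called higher by limma, and 37 genes met the limits, 7 of them among the 116. These controls themselves differed between replicates, at 8.68 and 9.54 in light, 9.08 and 8.96 with H2O2, and 9.47 and 10.13 in the dark. That centring raises the light minus dark difference of every gene alike, while centring on array medians lowers it and left 19 of the 116 under 3.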

How the data were processed

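The deposited table holds log2 expression for 22810 probe sets on 6 arrays. RMA and limma are named in the submitters' processing notes, without versions or settings. The log2 scale was read from the range of 2.22 to 14.23. After 64 control probe sets were set aside, 22746 were tested with no dim filter. Names came from the platform annotation, updated through the RefSeq table of TAIR10.1: 13513 probe sets (59.4%) name 1 gene, 503 several and 8730 are unnamed here. The brightest probe set stood for each of 13356 genes, and 13286 matched RefSeq. Gene spans and the order of neighbouring genes came from that table; promoter and protein sequences were not used here.

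limma 3.58.1 in R 4.3.3 (lmFit, eBayes, all 6 arrays, 3 contrasts, 2-sided) gave differences, standard errors, 95% intervals and Benjamini-Hochberg adjusted p over all tested probe sets, called under 0.05. The steps were tested on simulated data. The genes and lists were chosen with earlier results of these data known. Described singly were the genes on a pathway list, the 15 largest light differences, the 10 highest in the dark and in light, and annotated receptors, plus the 3 largest other genes per list. Other named genes, PGRL1B, TY1, ATHM2, AT1G80380, AT1G76450 and the AT2G29 and AT4G16 loci were added after their values were seen. Alternatives were 2 centrings of the arrays, leaving out each array, a replicate block, a dim filter and other limits.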

Additional observations from a re-analysis of the deposited data

How the results depend on the processing

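With each of the 6 arrays left out in turn, 102 to 120 genes met the limits, 95 to 113 of them among the 116; the median light minus dark of the 116 ran from 3.43 to 3.72 and their median H2O2 minus dark from 0.01 to 0.16. Other limits gave 314 genes at a light minus dark of at least 2, 30 at 4, and 81 and 143 with H2O2 within 0.3 and 0.7 of dark. The mean of all probe sets of a gene gave 117. A dim bound at the 30th percentile left 41 of the 116 dim in the dark, and at the 50th percentile 84.

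Centring on the hybridisation controls left 37 genes, 14 of them not dim in the dark (an alternative chosen after seeing the data; 49 as deposited), with medians over the 116 of 4.27 for light and 0.89 for H2O2. Calls over all probe sets were 5261 against 10920 for light minus dark (88.2% higher against 48.0%), 2379 against 4656 for H2O2 minus dark (98.9% higher against 60.0%) and 2576 against 8981 for light minus H2O2 (54.4% higher against 44.2%). Median centring gave 39.3% higher for H2O2 minus dark. Leaving out 1 array gave 9315 to 10468 calls for light minus dark, 2135 to 4949 for H2O2 minus dark and 6797 to 8843 for light minus H2O2. The low H2O2 counts were 2173 without H2O2 replicate 1, 2135 without H2O2 replicate 2 and 2306 without dark replicate 2. The 32 pathway genes called higher in light were 31 or 32 under every alternative run.

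Same-numbered arrays deviated together at r of -0.002, 0.069 and -0.032, so the numbers were not taken as pairs; the replicate block gave 10905, 4590 and 8972 calls in the 3 comparisons. The planned share of promoters with a motif was not run, because promoter sequences were not used here.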
